A study of Homo sapiens with 9 samples.

Results

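Knockdown of PHF19 in the established human multiple myeloma line MM1S (also written MM.1S) was compared with its empty vector control. The 6 libraries compared, of 9 in the series, were chosen by their labels: 3 from cells stably infected with lentivirus carrying an empty vector (shEV) and 3 from cells stably infected with lentivirus encoding an shRNA against PHF19 (PHF19_KD). All cells were kept in RPMI1640 with serum and antibiotics, total RNA was purified on columns, and libraries were built from 1 µg of total RNA with a TruSeq kit. A further 2 libraries came from PHF19_KD cells given back shRNA-resistant PHF19 (KD_Rescued). Their names carry a different lane tag from those of all other libraries in the series. The KD_Rescued libraries entered the filter on low counts, the scaling, the mean level of each gene and the estimate of the spread between libraries. With them 16600 genes were tested, and with the 6 compared libraries alone 14982. The title and the shRNA label of 1 more library disagree, and it was left out of every comparison. The labels name 1 cell line and do not say whether a clone was picked, which hairpin was used or how long after infection the cells were collected.

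PHF19 is a Polycomb-like protein that associates with Polycomb repressive complex 2 (PRC2), whose catalytic subunits EZH2 and EZH1 methylate lysine 27 of histone H3. Its Tudor domain binds histone H3 methylated at lysine 36, and Polycomb-like proteins help PRC2 to find its sites on chromatin. Multiple myeloma is a cancer of plasma cells, the antibody-secreting end stage of the B cell lineage, and these cells carry a heavy load of protein synthesis, folding and secretion.

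The libraries held 16974700 to 22739700 counts in shEV and 10609800 to 12024900 in PHF19_KD, so that depth moved with the groups. With every library thinned to the depth of the smallest, 10619 of 15126 tested genes were called, in place of 11476 of 16600. Levels are normalised CPM, that is, counts scaled to the size of each library, and a gene was called when its edgeR quasi-likelihood test had a Benjamini-Hochberg adjusted p under 0.05. The first principal component of the 6 compared libraries held 76.8% of the variance. Replicates differed by more than sampling noise in every pair, with shEV replicate 3 farthest from the other libraries of its group. The labels do not say that replicates are separate cultures, and the p-values therefore reflect only how far these libraries scatter, possibly for technical reasons. PHF19 itself measured 123, 124 and 103 CPM in shEV and 26.0, 27.5 and 27.3 CPM in PHF19_KD, without overlap. Its log2 fold change was -2.11 ± 0.08 (SE, n = 3 per group; edgeR adjusted p = 2.47e-10), which left 23.1% of the control level. As in any bulk sample, fewer cells of a type and less RNA per cell cannot be told apart.

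The whole transcriptome moved. Of 16600 genes tested, 11476 were called (69.1%), 5793 of them higher (34.9%) and 5683 lower (34.2%) in PHF19_KD, and the libraries of the groups did not overlap for 11948 genes (72.0%). With upper-quartile scaling in place of TMM, the calls were 7042 higher and 4573 lower, and the median log2 fold change over all genes was 0.19 instead of 0.03. Changes tested to be larger than 2-fold numbered 1528 higher (9.20%) and 1045 lower (6.30%). At the other end, 1181 genes (7.11%) were held within 1.2-fold in either direction by their 95% interval. By size, 1758 of the higher calls and 2401 of the lower calls were under 1.5-fold, while 114 higher and 65 lower calls exceeded 16-fold.

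**Figure D1:**
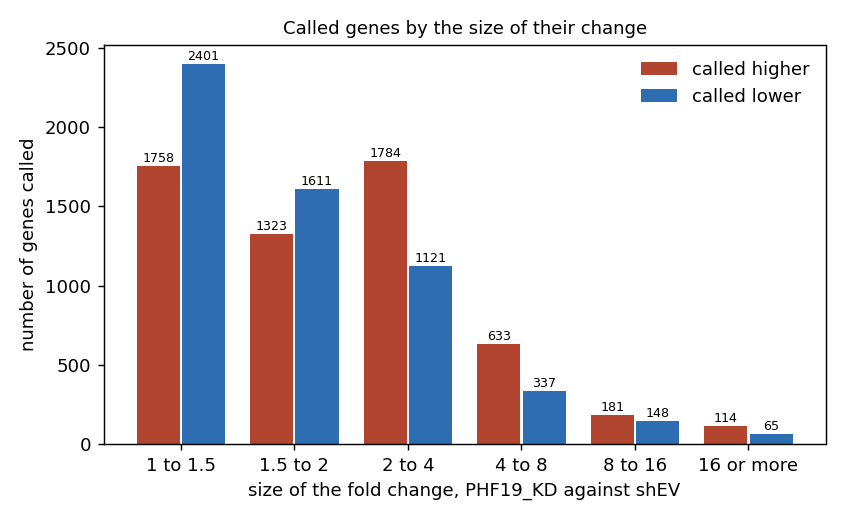
Number of genes called higher or lower in PHF19_KD (y axis) by the size of the fold change (x axis, bins from under 1.5-fold to over 16-fold). Lower calls outnumber higher calls below 2-fold, and higher calls outnumber lower calls in each bin above 2-fold (1784 against 1121 between 2-fold and 4-fold).

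The balance of rises and falls shifted with the level of the gene, although both were most numerous between a mean log2 CPM of 4 and 6. Among genes with a mean log2 CPM under 0, 959 rose and 197 fell, and the median log2 fold change was 0.77. Between 4 and 6, the same counts were 1493 and 2255 with a median of -0.13, and between 6 and 8 they were 685 and 1607 with a median of -0.25. The median crossed from positive to negative at a mean log2 CPM of about 4 with TMM scaling, with thinned libraries (1.17 in the lowest bin, -0.22 between 6 and 8) and with the 6 compared libraries alone. The bins of every setting were those of the main fit over 8 libraries. The lowest bin held 2546 genes there, of which 1073 were tested with thinned libraries and 975 with the 6 compared libraries alone. With upper-quartile scaling the crossing lay higher, since the medians were 0.93 in the lowest bin, 0.03 between 4 and 6 and -0.10 between 6 and 8. The slope was seen in protein-coding genes (1.21 in the lowest bin and -0.26 between 6 and 8) and was not seen in pseudogenes, whose medians were -0.06 in the lowest bin and 0.07 between 4 and 6 on the main scale. Genes low in both groups have wide errors, and their fitted medians depend on the prior count.

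**Figure D2:**
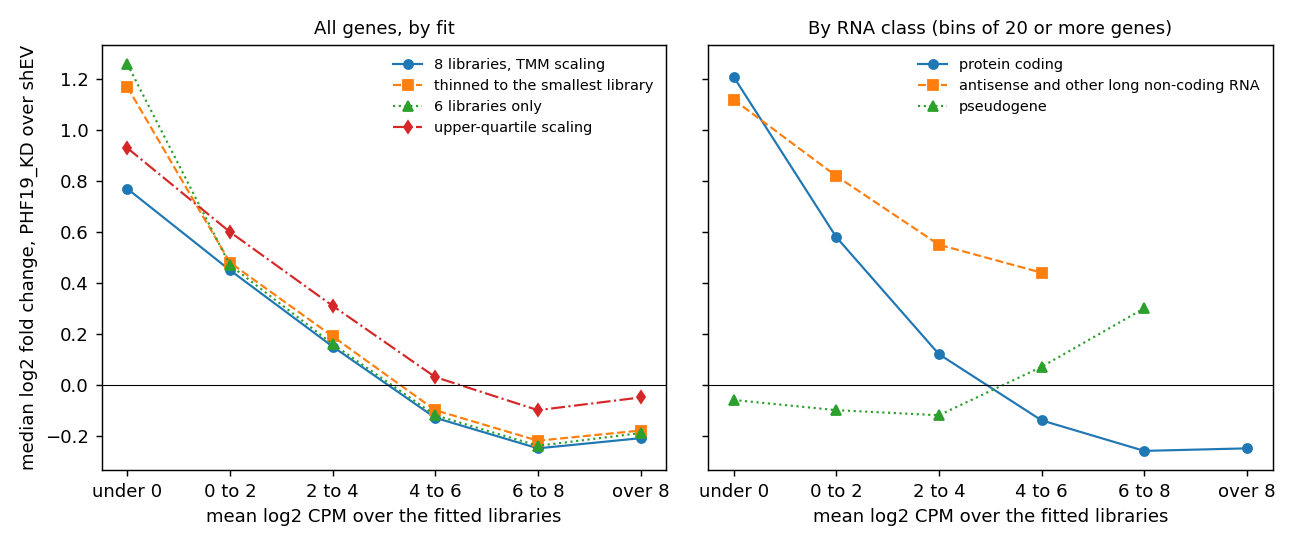
Median log2 fold change, PHF19_KD over shEV (y axis), in 6 bins of mean log2 CPM (x axis), for all genes under several settings (left) and by RNA class on the main scale (right; bins of at least 20 genes). The bins are those of the main fit over 8 libraries for every setting. With TMM the median over all genes runs from 0.77 in the lowest bin to -0.25 between 6 and 8, and the long non-coding and antisense RNAs stay above 0 in each bin drawn.

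Origin licensing genes had the lowest median of the 85 gene lists. Origin licensing places the MCM helicase on DNA before S phase and CDC45 and GINS switch it on; of the 24 measured genes of this list, 23 fell, 21 of them by more than 2-fold, and the median log2 fold change was -3.15. Their summed level was 3200, 3272 and 3128 CPM in shEV and 430, 430 and 428 CPM in PHF19_KD. CDC6, which loads MCM with CDT1, measured 112, 114 and 123 CPM in shEV and 3.72, 3.56 and 4.86 CPM in PHF19_KD, a log2 fold change of -4.84 ± 0.09 (SE; edgeR adjusted p = 1.78e-12). GINS2, a subunit of the GINS complex, measured 35.7, 36.0 and 33.2 CPM against 1.67, 1.41 and 1.39 CPM (-4.55 ± 0.11). In both genes all 3 knockdown libraries lay far below all 3 controls. The member without a call was ORC2, named after its value was seen and with divided reads, at a log2 fold change of -0.12.

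The promoters of both genes are shown for a sequence feature held by part of the list. The feature was not used to choose the list, whose members were chosen with earlier results of these data known. E2F factors, which drive genes of the G1 to S transition, bind the letters TTTCCCGC, TTTGGCGC, TTTCGCGC or TTTGCCGC on either strand. Such letters lay in 12 of 29 promoters (41.4%) of the licensing list, in 10 of 34 (29.4%) of the polymerase list described next and in 6 of 18 (33.3%) of PRC2 genes, and in 5 of 16 (31.2%) of replication-dependent histone genes, which mostly rose, against 4.84% of promoters of tested protein-coding genes and 3.31% of all promoters in the RefSeq table. Over all genes lower by more than 2-fold, 12.6% of promoters held these letters, and over all genes higher by more than 2-fold, 2.52%. Promoters run from 250 bases before to 50 bases after a start, are credited to RefSeq on GRCh38.p14, and could be matched for 21 of the 24 licensing genes. The CDC6 promoter lies at chr17:40287629-40287928 on the plus strand and the GINS2 promoter at chr16:85688905-85689204 on the minus strand. Both are written 5′ to 3′ in the direction of the gene, with the matching letters in capitals (in GINS2 they are read on the opposite strand). A match describes the sequence and does not show a bound site.
CDC6: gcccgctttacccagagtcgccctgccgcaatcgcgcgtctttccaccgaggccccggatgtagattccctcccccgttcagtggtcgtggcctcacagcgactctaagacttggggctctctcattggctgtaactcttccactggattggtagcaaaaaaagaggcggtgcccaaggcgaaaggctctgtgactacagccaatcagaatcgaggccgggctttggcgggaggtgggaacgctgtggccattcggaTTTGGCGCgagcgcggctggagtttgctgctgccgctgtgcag
GINS2: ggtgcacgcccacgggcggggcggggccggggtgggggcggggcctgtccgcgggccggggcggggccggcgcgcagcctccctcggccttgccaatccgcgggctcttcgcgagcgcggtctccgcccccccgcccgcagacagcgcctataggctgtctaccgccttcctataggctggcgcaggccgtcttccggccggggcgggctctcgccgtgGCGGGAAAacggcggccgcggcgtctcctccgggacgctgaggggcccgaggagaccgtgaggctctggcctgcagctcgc

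Genes that copy and repair DNA fell with them. Of 28 replicative polymerases, primase, clamp and loader genes, 27 fell (median -2.06), among them POLE2, a subunit of the leading-strand polymerase, from 7.59 ± 1.42 to 0.379 ± 0.0517 CPM (mean ± SD, n = 3 per group). The exception was POLD4, the smallest polymerase delta subunit, which rose from 34.1, 40.6 and 34.9 CPM to 111, 105 and 101 CPM (log2 fold change 1.53 ± 0.07). Reads of POLD4 were divided between overlapping or similar genes (fractional values in over 4 of 9 libraries), so its level is uncertain. All 31 genes for homologous recombination and interstrand crosslink repair fell, 25 of them by more than 2-fold, with a summed level of 1652 CPM in shEV and 463 CPM in PHF19_KD.

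Other repair routes moved less and in both directions. In mismatch, base and nucleotide excision repair, 18 of 34 genes fell and 10 rose (median -0.28). The uracil glycosylase UNG fell (-2.20), while the glycosylase NEIL1 (2.14) and the nuclease subunit ERCC1 (1.28) rose, both of the latter with divided reads. In end joining and damage signalling 18 of 24 fell, including the checkpoint kinase CHEK1 from 105 ± 1.83 to 15 ± 0.614 CPM. The rises there were the ligase LIG4 (0.72), the polymerase POLM (0.92), the kinase ATM (0.84, divided reads) and POLL, which lies outside the naming rule and has divided reads. Nucleotide supply fell for 26 of 30 genes. Its rises were RRM2B (0.67), the p53-inducible reductase subunit that serves cells outside S phase, the guanylate kinase GUK1 (0.49) and IMPDH2 (0.31, divided reads).

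Cell cycle regulators mostly fell. Of 20 E2F, RB and MuvB factors, 17 fell and 2 rose (LIN37, 0.53, and RBL2, 0.17, both with divided reads), led by the falls of E2F8 (-4.34) and of MYBL2 (-4.16), the B-Myb partner of the MuvB complex. The call of LIN37 was lost with DESeq2 (adjusted p = 0.0519) and without any 1 of shEV replicate 3 and PHF19_KD replicates 1 and 3 (edgeR adjusted p = 0.051, 0.0698 and 0.08). Of 30 cyclins, kinases and inhibitors, 18 fell and 6 rose. Among the rises was cyclin G1 (CCNG1), a p53 target, at 158, 159 and 195 CPM in shEV and 609, 588 and 593 CPM in PHF19_KD (1.81 ± 0.07), with CCNG2, a FOXO target linked to quiescence, at 14.6, 15.4 and 15.1 against 41.5, 40.7 and 41.4 CPM (1.45 ± 0.06). The inhibitor CDKN1C (p57) rose from 2.62 ± 0.671 to 6.94 ± 0.319 CPM.

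Genes for dividing chromosomes mostly fell, to differing depths. Of 31 centromere and kinetochore genes 30 fell (median -2.69), with ZWINT, which binds the outer kinetochore, at 186, 183 and 194 CPM in shEV and 11.4, 11 and 10.7 CPM in PHF19_KD. CENPT alone rose in this list (0.29, divided reads). Of 26 condensin and cohesin genes 23 fell (median -1.62), and the rises were the meiotic cohesin subunit STAG3 (1.58, divided reads) and the cohesin loader subunit MAU2 (0.42). Of 32 centrosome duplication genes 30 fell (median -1.24), led by the kinase PLK4, which licenses a new centriole (-3.36). Spindle checkpoint and anaphase-promoting complex genes fell in 20 of 25 cases (median -0.80), and the scaffold ANAPC2 (0.63) and ANAPC16 (0.29, divided reads) rose.

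Mitotic kinesins fell and transport kinesins were mixed. All 13 mitotic kinesins fell by more than 2-fold, within a narrow range of log2 fold changes from -3.19 to -2.2. KIF23, which bundles midzone microtubules for cytokinesis, measured 52.4, 53.0 and 56.3 CPM in shEV and 5.67, 5.79 and 6.24 CPM in PHF19_KD (edgeR adjusted p = 7.62e-12; divided reads in 5 libraries). Kinesins and dynein subunits of cargo transport were mixed, with 12 of 26 higher and 9 lower (median 0.18), a balance that turned to 6 higher and 7 lower without genes of divided reads. KIF5A, a conventional kinesin of neurons, rose (1.73) and KIF21A fell (-1.28). Tubulins fell in 9 of 16 cases and rose in 3, and their summed level went from 5990 ± 347 to 1214 ± 46.0 CPM, though 15 of the 16 have divided reads. Among the rises, TUBB4A, a neuronal beta tubulin, went from 7.83 ± 0.959 to 33.5 ± 1.25 CPM, beside TUBG2 (0.96) and the low TUBB3 (1.23, named after its value was seen). The call of TUBB3 was lost with DESeq2 (adjusted p = 0.0744) and without PHF19_KD replicate 2 (edgeR adjusted p = 0.059).

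Promoters of the mitotic kinesins often held the letters TTTGAA, the core of the cell cycle homology region through which MuvB complexes act on G2 and M phase genes. These letters, on either strand, were in 9 of 14 promoters (64.3%) against 10.7% of promoters of tested protein-coding genes and 15.2% of the whole table. The same letters were about as frequent in 2 lists without a fall, the guanylate-binding proteins and GIMAP GTPases (4 of 7, 57.1%) and the Fc receptor-like and SLAM family genes (7 of 13, 53.8%). CCAAT, the box bound by NF-Y, was in 10 of 14 (71.4%) against 34.9%. It was also in 13 of 16 promoters (81.2%) of replication-dependent histone genes, which mostly rose. The KIF23 promoter (chr15:69414099-69414398, plus strand, RefSeq on GRCh38.p14) is printed with the TTTGAA letters in capitals.
KIF23: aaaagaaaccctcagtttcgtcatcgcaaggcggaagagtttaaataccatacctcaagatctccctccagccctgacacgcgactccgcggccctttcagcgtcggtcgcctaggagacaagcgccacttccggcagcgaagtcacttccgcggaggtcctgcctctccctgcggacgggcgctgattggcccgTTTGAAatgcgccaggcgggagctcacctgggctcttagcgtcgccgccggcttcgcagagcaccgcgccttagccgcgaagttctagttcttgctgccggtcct

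**Figure D3:**
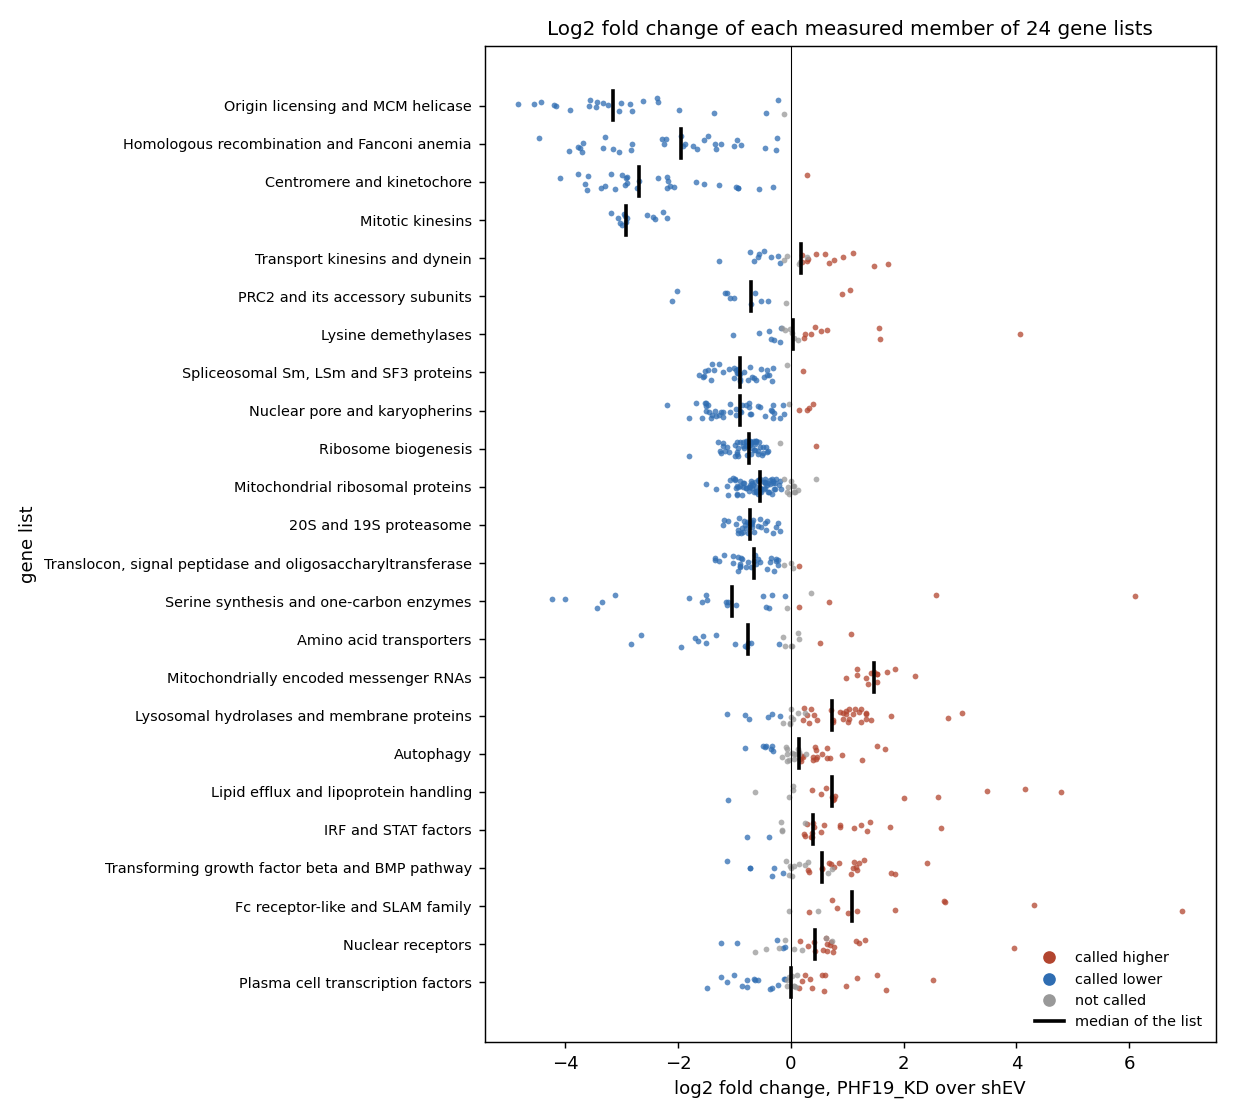
Log2 fold change, PHF19_KD over shEV (x axis), of each measured member of 24 gene lists (y axis). Points are genes, coloured by call, and the black line is the list's median; the licensing list has its median at -3.15, the proteasome list at -0.73 and the lysosome list at 0.72.

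Genes that assemble chromatin mostly fell. Of 24 histone chaperones 21 fell, led by ASF1B (-3.14) and the replication-coupled CAF-1 subunits CHAF1A (-2.92) and CHAF1B (-2.56), both with divided reads, and NAP1L1 rose (0.33, divided reads). The replacement histone H2AFZ, which encodes H2A.Z, fell from 737 ± 17.9 to 177 ± 3.89 CPM (divided reads). Replication-dependent histone genes behaved otherwise: of 62 listed only 14 were measured, at a summed level of 19.1 ± 0.889 CPM in shEV and 33.2 ± 3.89 CPM in PHF19_KD, with 9 higher and 2 lower. The lower ones were HIST1H1C (-0.33), a call lost without any 1 of shEV replicates 2 and 3 and PHF19_KD replicates 1 and 3 (adjusted p = 0.129, 0.0558, 0.133 and 0.104 in edgeR), and HIST2H2AC (-2.09, divided reads, named after its value was seen). Their messenger RNAs end in a stem loop without a poly(A) tail, and 1 of the 14 was left at a filter of 5 CPM.

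PRC2 lost more than the targeted subunit. Of 13 measured PRC2 genes, 10 fell and 2 rose (median -0.70). The core subunit SUZ12 measured 194, 190 and 213 CPM in shEV and 90.1, 87.9 and 87.9 CPM in PHF19_KD (-1.17 ± 0.05; edgeR adjusted p = 1.8e-09; divided reads). PHF1, another Polycomb-like protein and a paralogue of PHF19, rose from 16.4, 16.4 and 13.2 CPM to 32.8, 32.6 and 30.1 CPM (1.05 ± 0.09), and EZH1 was the other member that rose. JARID2, named after its value was seen, was at -0.08 and was not called.

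Other chromatin enzymes showed single large changes inside mixed lists. KDM5B, which removes methyl groups from lysine 4 of histone H3, had the largest rise among well-measured genes (a log2 CPM averaging 4 or more, with no overlap): 2.94, 3.19 and 3.77 CPM in shEV and 54.1, 55.4 and 55.2 CPM in PHF19_KD (4.07 ± 0.10; edgeR adjusted p = 9.26e-12). KDM6B, which removes the methyl mark that PRC2 places, rose from 8.22 ± 0.815 to 24.7 ± 2.87 CPM. Over all 22 lysine demethylases 9 rose and 7 fell (median 0.04). Of 27 lysine methyltransferases 14 fell and 5 rose (ASH1L, KMT2D and SUV420H1 by 0.80, 0.54 and 0.48, and SMYD3 and SETDB1, named after their values were seen, by 0.44 and 0.15; ASH1L, KMT2D and SETDB1 have divided reads, and SETDB1 lost its call without PHF19_KD replicate 3, with edgeR adjusted p = 0.0707); the heterochromatin enzyme SUV39H1 fell (-2.92, divided reads) and WHSC1 (NSD2), which methylates lysine 36, fell from 282 ± 5.11 to 94.0 ± 2.98 CPM.

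DNA methylation genes were split, with 8 of 20 higher and 9 lower, and 9 higher and 6 lower with upper-quartile scaling. The maintenance pair UHRF1 (-4.49) and DNMT1 (-1.42) fell, both with divided reads, as did the de novo enzyme DNMT3B (-2.06), while DNMT3A rose from 17.3 ± 0.633 to 28.6 ± 0.690 CPM. GADD45A, a stress gene also linked to demethylation, rose from 27.6, 26.6 and 25.8 CPM to 131, 132 and 127 CPM (2.28 ± 0.05). SWI/SNF remodeller genes fell in 20 of 23 cases (median -0.37), 2 of them by more than 2-fold: DPF3 (-1.27) and the low DPF1 (-2.87, named after its value was seen). In that list SMARCD3 (2.63, divided reads) and SMARCA2 (0.47, divided reads) rose.

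Genes for making and exporting RNA mostly fell. Sm, LSm and SF3 proteins of the spliceosome fell in 33 of 35 cases, 9 of them by more than 2-fold (median -0.91), and SNRNP70 rose by 0.22, a call lost without PHF19_KD replicate 1 (edgeR adjusted p = 0.0501). SR and hnRNP splicing regulators fell in 29 of 33 cases, 10 by more than 2-fold (median -0.77), with SRSF1 going from 387 ± 12.6 to 122 ± 4.68 CPM (divided reads), and HNRNPLL rose (0.42). Nuclear pore and karyopherin genes fell in 41 of 46 cases, 18 by more than 2-fold (median -0.90), led by KPNA2, an importin alpha (-2.19, divided reads), and NDC1, a membrane nucleoporin (-1.81). Subunits of RNA polymerase II and Mediator fell in 26 of 43 cases (median -0.41) and those of polymerases I and III in 17 of 28 (median -0.32), where POLR3GL (0.64), TAF1C (0.61) and POLR1D (0.25) rose. Among symbol families, 36 of 52 DEAD and DEAH box helicases fell and 6 rose.

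Ribosome production and ribosomal proteins moved in opposite directions. Of 50 ribosome biogenesis genes 48 fell (median -0.75), among them LYAR, a nucleolar factor, from 39.3 ± 2.85 to 11.3 ± 0.579 CPM, and UTP3 alone rose (0.45). Of 86 cytosolic ribosomal protein genes 70 rose and 4 fell (median 0.42). The 4 were RPL41 (-0.22), whose groups overlapped, and the paralogue genes RPL39L (-1.17), RPL26L1 (-0.75) and RPL7L1 (-0.25), all named after their values were seen and with divided reads. The call of RPL41 was lost with upper-quartile scaling (-0.06) and without any 1 of shEV replicates 1 and 2 and PHF19_KD replicate 1 (edgeR adjusted p = 0.0738, 0.0622 and 0.0722), and that of RPL7L1 with upper-quartile scaling (-0.10). The share of counts of the family was 8.51%, 8.49% and 8.10% in shEV and 11.2%, 12% and 11.6% in PHF19_KD. The groups did not overlap, and the exact two-sided permutation test gave p = 0.1, the smallest value that 3 against 3 libraries allow.

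Translation factors were mixed. Of 39 initiation factors 29 fell and 8 rose; the helicase EIF4A2 rose from 333 ± 17.3 to 769 ± 12.5 CPM (divided reads), while EIF2S1, the alpha subunit of eIF2, fell (-1.19). Elongation and termination factors gave 4 rises and 5 falls of 12, and 6 rises and 5 falls with upper-quartile scaling. EEF2, which moves the ribosome along, measured 3483, 3604 and 2692 CPM in shEV and 5332, 5585 and 5333 CPM in PHF19_KD (0.73 ± 0.10; edgeR adjusted p = 0.00017), with shEV replicate 3 lowest. EEF1A1 also rose, as did EEF1D and EEF1G, both with divided reads, and EEF1E1 (-1.25), ABCE1 (-1.14), EIF5A (-1.02), ETF1 and GSPT1 fell, all 5 with divided reads and the last pair named after their values were seen. Cytosolic aminoacyl-tRNA synthetases fell in 21 of 23 cases (median -0.66) and QARS rose (0.36).

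Protein quality control fell at the proteasome and rose at the lysosome. All 33 genes of the 20S core and 19S cap fell (median -0.73), and their summed level was 5072, 5181 and 4951 CPM in shEV and 3092, 3277 and 3231 CPM in PHF19_KD. PSMD14, the deubiquitinase of the cap, fell from 148 ± 6.6 to 68.0 ± 3.43 CPM (-1.12 ± 0.05). Of 44 lysosomal hydrolases and membrane proteins, 30 rose, 11 of them by more than 2-fold, and 6 fell (median 0.72), with summed levels of 5224, 5376 and 5050 CPM in shEV and 7843, 8185 and 7989 CPM in PHF19_KD. The groups overlapped in neither sum.

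Among the lysosomal genes, GAA, which breaks down glycogen, measured 3.98, 4.35 and 4.31 CPM in shEV and 29.3, 28.8 and 28.4 CPM in PHF19_KD (2.78 ± 0.09; edgeR adjusted p = 7.53e-11). The cathepsin CTSF rose from 1.95 ± 0.307 to 16.2 ± 1.23 CPM and CTSZ from 29.1 ± 2.69 to 99.6 ± 7.41 CPM. Alpha-galactosidase (GLA) fell by 1.14 on the log2 scale, and cathepsin C (CTSC) fell by 0.74. Of 39 autophagy genes 18 rose and 7 fell (median 0.14); the initiating kinase ULK1 rose from 11.9 ± 1.90 to 34.5 ± 1.53 CPM, and the cargo receptor SQSTM1 fell (-0.46, divided reads). The proton pump of the lysosome gave 6 rises and 5 falls of 17, and 4 rises and 5 falls without the filter on low counts.

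The secretory route of the plasma cell fell. Translocon, signal peptidase and oligosaccharyltransferase genes fell in 29 of 33 cases (median -0.65), led by SRPRB, the membrane anchor of the signal recognition particle receptor (-1.35, divided reads), and SEC61G (-1.34). OST4 alone rose (0.14, divided reads), a call lost with DESeq2 (adjusted p = 0.0517) and without shEV replicate 1 (edgeR adjusted p = 0.0582), shEV replicate 3 (0.0814), PHF19_KD replicate 2 (0.181) or PHF19_KD replicate 3 (0.075). Coat proteins of COPII and COPI fell in 24 of 31 cases, with SEC24D going from 170 ± 2.99 to 69.0 ± 1.51 CPM, while SEC31B rose (1.83, divided reads). Immunoglobulin and joining chain genes fell in 9 of 14 cases, and their summed level went from 27480 ± 749 to 13409 ± 301 CPM. The 3 rises, named after their values were seen, were at the other end of the abundance range: the alpha heavy chains IGHA1 (0.271, 0.0506 and 0 CPM in shEV against 5.21, 5.96 and 5.20 CPM) and IGHA2 (0.136, 0.253 and 0.295 CPM against 5.21, 4.22 and 4.51 CPM), whose reads are divided, and PIGR, the receptor that carries IgA across epithelia (0.0452, 0.152 and 0.059 CPM against 4.47, 5.79 and 4.6 CPM). No knockdown library overlapped the controls in these 3 genes. The share of counts from immunoglobulin and T cell receptor genes was 2.83%, 2.82% and 2.54% in shEV and 1.40%, 1.46% and 1.46% in PHF19_KD, without overlap (exact permutation p = 0.1). By gene this class was balanced, with 10 of 30 measured genes higher and 9 lower (median 0.06). Its most abundant losses were IGLC1, from 13865 ± 958 to 6903 ± 175 CPM, and IGLV2-14, from 9033 ± 735 to 4541 ± 187 CPM.

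Genes of serine synthesis and one-carbon metabolism mostly fell. Of 24 measured genes, 18 fell and 4 rose (median -1.04). PHGDH, the first enzyme of serine synthesis, measured 74.3, 74.2 and 62.7 CPM in shEV and 4.09, 3.31 and 3.90 CPM in PHF19_KD (-4.23 ± 0.11; edgeR adjusted p = 1.57e-11), and the mitochondrial folate enzyme ALDH1L2 fell from 119 ± 6.75 to 11 ± 0.822 CPM. AMT, of the glycine cleavage system, rose from 1.60 ± 0.273 to 9.68 ± 1.09 CPM. Other rises were MTR (0.14), a call lost without any 1 of shEV replicate 1 and PHF19_KD replicates 1 and 3 (edgeR adjusted p = 0.0763, 0.052 and 0.0802), and ALDH1L1, named after its value was seen, at 0.0452, 0 and 0 CPM in shEV and 1.49, 1.99 and 1.47 CPM in PHF19_KD. Amino acid transporters fell in 14 of 22 cases, among them the cystine carrier SLC7A11 (-2.83), the glycine carrier SLC6A9 (-2.66) and the leucine carrier SLC7A5 (-1.94), all with divided reads, while SLC7A7 (1.07) and SLC43A2 (0.52) rose.

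Nuclear genes for mitochondria fell while mitochondrially encoded RNA rose. Mitochondrial ribosomal proteins fell in 67 of 78 cases with no rise (median -0.55), tricarboxylic acid cycle genes in 21 of 27 (median -0.42) and protein import genes in 23 of 30 (median -0.59). Complex I subunit genes fell in 25 of 37 cases with no rise, and complex IV subunit genes in 9 of 12 with 1 low gene higher, COX6B2 (2.76, divided reads, named after its value was seen). Rises in the import list were TOMM7 (0.84) and TOMM20 (0.40), both with divided reads, and PAM16 (0.38, divided reads), whose call was lost without PHF19_KD replicate 1 or 2 (edgeR adjusted p = 0.0519 and 0.0847). TFAM, which packs and transcribes mitochondrial DNA, fell from 122 ± 4.89 to 56.3 ± 1.65 CPM (divided reads).

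All 13 mitochondrially encoded messenger RNAs rose (median 1.48), with a summed level of 31490, 26861 and 30603 CPM in shEV and 84648, 76266 and 82772 CPM in PHF19_KD. The largest of these rises was MT-ND1, a complex I subunit, at 857, 692 and 774 CPM against 3738, 3369 and 3636 CPM (2.21 ± 0.08; divided reads). Transfer RNAs of the mitochondrion rose in 17 of 19 cases (median 2.23) and both ribosomal RNAs rose (median 2.47). The share of counts from all mitochondrially encoded genes was 3.31%, 2.84% and 3.32% in shEV and 10.0%, 9.02% and 9.74% in PHF19_KD (exact permutation p = 0.1). This share, sometimes read as a measure of RNA or cell quality, moved with the groups, and its part in other results was not tested. Leaving these genes out of the fit gave 5571 higher and 5901 lower calls, where the main fit gave 5793 and 5683. That fit keeps the same libraries, so it cannot separate RNA or cell quality from the groups.

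**Figure D4:**
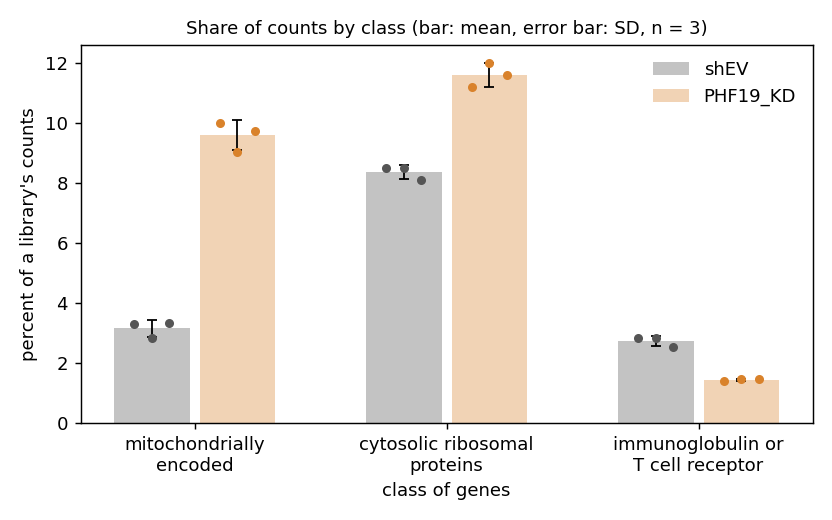
Percent of each library's counts (y axis) from mitochondrially encoded, cytosolic ribosomal protein and immunoglobulin or T cell receptor genes (x axis), with points for the 3 libraries of a group, bars for the mean and error bars for the SD. The mitochondrial share is 3.16 ± 0.279% in shEV and 9.60 ± 0.518% in PHF19_KD, and no class has overlapping groups.

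In units of CPM the change was spread over many genes. Gains summed to 200023 CPM over 8564 genes, of which the 10 largest made up 29.4%: 9 mitochondrially encoded genes and EEF1A1, the elongation factor that delivers tRNA. Losses summed to -228427 CPM over 8030 genes, and the 10 largest made up 13.1%. Those 10 were IGLC1, IGLV2-14, IGJ, IGLL5, TUBA1B, TXNDC5, GAPDH, ACTB, ACTG1 and TUBB, that is, light chain and joining chain, tubulin, actin, a folding enzyme and a glycolytic enzyme; IGLL5, TUBA1B, ACTG1 and TUBB have divided reads. GAPDH measured 3507, 3646 and 3174 CPM in shEV and 1352, 1433 and 1443 CPM in PHF19_KD, and ACTB 3777, 3924 and 3134 CPM against 1776, 1883 and 1846 CPM, both with divided reads; neither pair of groups overlapped.

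Lipid efflux and lipoprotein genes mostly rose, and the other lipid lists were mixed. Of 18 genes for lipid efflux and lipoprotein handling 13 rose and 1, the receptor LRP8, fell (-1.12, divided reads). ABCA1, which loads cholesterol onto apolipoproteins, measured 2.76, 2.78 and 3.13 CPM in shEV and 33.6, 30 and 32.9 CPM in PHF19_KD (3.48 ± 0.10; edgeR adjusted p = 3.09e-11), and ABCG1 rose from 10.5 ± 1.12 to 64.4 ± 3.53 CPM (divided reads). SREBF1, the regulator of fatty acid synthesis, rose from 21.5 ± 3.47 to 172 ± 6.34 CPM, although 10 of the 17 genes of that pathway fell and 5 rose, and FASN, the synthase itself, fell (-0.59). In fatty acid oxidation 12 of 30 genes rose and 13 fell, and 16 rose and 9 fell with upper-quartile scaling; CPT1B, which commits fatty acids to the mitochondrion, rose (2.46, divided reads).

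Redox, iron and polyamine genes gave smaller or mixed counts. Of 33 glutathione and NRF2 target genes 18 fell, such as NQO1 (-1.13), and 6 rose, such as TXNIP, an inhibitor of thioredoxin, from 146 ± 11.6 to 410 ± 1.99 CPM. Of 25 iron and heme genes 8 rose and 11 fell, and 13 rose and 7 fell with upper-quartile scaling; with a filter of 5 CPM, 11 rose and 8 fell. There the transferrin receptor TFRC fell from 292 ± 12.9 to 110 ± 2.51 CPM. Of 15 polyamine genes 8 fell and 6 rose, a balance of 3 falls and 4 rises without genes of divided reads. Spermidine synthase (SRM) fell from 200 ± 35.7 to 74.9 ± 4.94 CPM and SAT1, which starts polyamine breakdown, rose from 6.10, 6.17 and 5.90 CPM to 37.9, 39.8 and 40.1 CPM (2.69 ± 0.08).

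**Figure D5:**
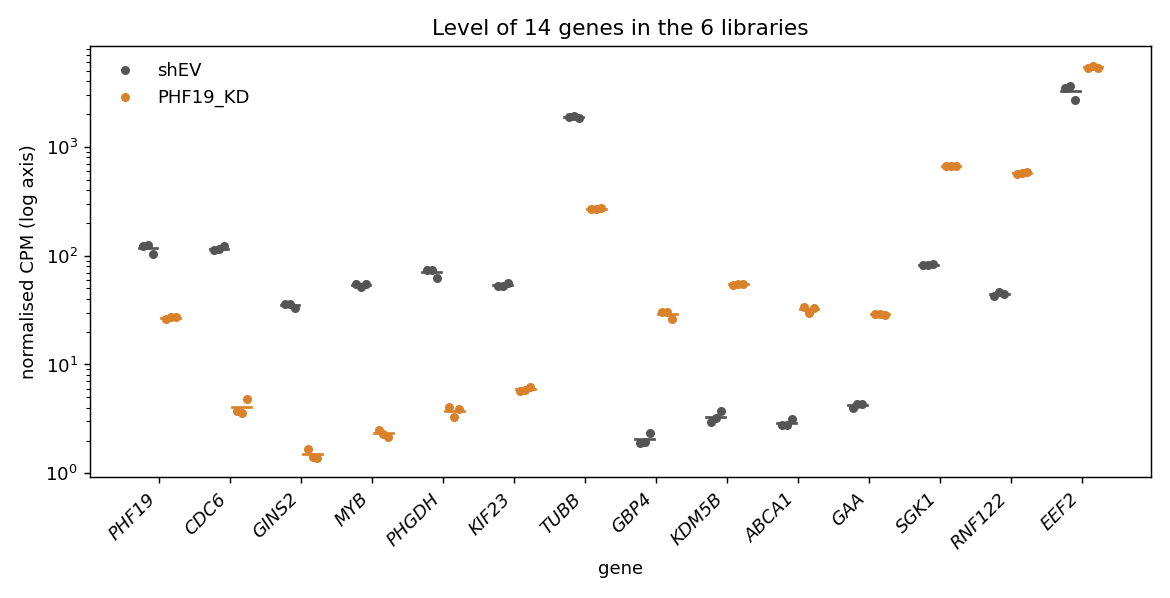
Normalised CPM (y axis, log scale) of 14 genes (x axis) in the 3 shEV and 3 PHF19_KD libraries, with a bar at each group's mean. Points of the groups do not overlap for any of the 14, from CDC6 (116 against 4.04 CPM on average) to GAA (4.21 against 28.8 CPM). The same held for 72.0% of all 16600 genes tested, and the largest rises and falls were named only where groups did not overlap.

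Surface and immune genes rose more often than they fell. Of 12 Fc receptor-like and SLAM family genes 10 rose, 6 by more than 2-fold, and none fell. LY9 (SLAMF3), an adhesion receptor of lymphocytes, measured 85.6, 87.5 and 81.6 CPM in shEV and 189, 197 and 187 CPM in PHF19_KD (1.17 ± 0.05; edgeR adjusted p = 6.3e-10). Of 31 integrin and adhesion genes 18 rose and 9 fell, with the integrin subunit ITGA3 higher at 1.73 on the log2 scale and ITGB8 lower at -1.62 (divided reads). Semaphorin and plexin genes, guidance ligands and their receptors, gave 19 rises and 3 falls of 23 (median 1.10). The falls, named after their values were seen, were SEMA6D (-1.76), PLXNA2 (-1.66) and PLXNC1 (-0.11), the last 2 with divided reads. PLXNC1 was at 0.05 with upper-quartile scaling and lost its call without PHF19_KD replicate 2 or 3 (edgeR adjusted p = 0.0677 and 0.0788).

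Cytokine and chemokine genes were mixed. Of 32 cytokine receptors 14 rose and 11 fell. The interleukin 6 receptor IL6R, whose ligand is a growth factor for myeloma cells, fell from 436, 438 and 426 CPM to 186, 187 and 191 CPM (-1.2 ± 0.04; edgeR adjusted p = 8.53e-11), and IL11RA, whose receptor shares the same signalling chain, rose from 3.01 ± 0.191 to 22.7 ± 0.305 CPM (divided reads). Chemokine genes fell in 8 of 15 cases, with CCL3, an osteoclast-activating chemokine, going from 998 ± 38.5 to 307 ± 10.5 CPM (divided reads), while CCL5 rose from 10.5 ± 0.366 to 35.1 ± 0.870 CPM. In the TNF receptor family, TNFRSF17 (BCMA) fell (-1.07) and TNFRSF13B (TACI) fell (-1.23, divided reads), while CD40 rose (1.39).

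Of 30 genes for nucleic acid sensors and adaptors 14 rose and 5 fell. The RIG-I-like receptor DHX58 measured 1.76, 1.57 and 1.83 CPM in shEV and 14.1, 16.4 and 14.1 CPM in PHF19_KD (3.11 ± 0.14), whereas MB21D1, which encodes the DNA sensor cGAS, fell from 20.2 ± 0.411 to 8.70 ± 0.958 CPM, beside ZBP1 (-0.42), IRAK1 (-0.32) and, named after their values were seen, TLR7 (-1.57) and ADAR (-0.12). ADAR was at 0.04 with upper-quartile scaling and lost its call without PHF19_KD replicate 2 or 3 (edgeR adjusted p = 0.088 and 0.0653). In the list of IRF and STAT factors, which also holds other genes such as SOCS6, 18 of 24 rose, and IRF4 (-0.78) and SOCS6 (-0.38) fell. Among the 18, IRF7 rose from 9.85 ± 0.875 to 23.5 ± 1.35 CPM and STAT5A from 4.23 ± 0.855 to 14.3 ± 1.2 CPM (divided reads). APOBEC3B, a cytidine deaminase of the nucleus, fell from 146 ± 4.53 to 33.7 ± 1.07 CPM (divided reads), and APOBEC3H rose from 6.67 ± 0.699 to 21.2 ± 2.26 CPM.

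Of 8 guanylate-binding proteins and GIMAP GTPases, 4 rose and none fell. Besides GBP4 these were GBP2 (4.56) and GBP1 (0.64), both with divided reads, and GIMAP8 (0.62, named after its value was seen). GBP4, an interferon-inducible GTPase, measured 1.90, 1.92 and 2.36 CPM in shEV and 30.2, 30.5 and 26.1 CPM in PHF19_KD (3.82 ± 0.12; edgeR adjusted p = 6.95e-11; divided reads). Its promoter (chr1:89198893-89199192, minus strand, RefSeq on GRCh38.p14) is shown for a pair of GAAA runs with any 2 bases between them, on either strand, the core of the interferon-stimulated response element. They were in 4 of 7 promoters (57.1%) of this list, in 4 of 6 (66.7%) of the immunoproteasome list and in 6 of 11 (54.5%) of TNF superfamily ligands, against 3.14% of promoters of tested protein-coding genes and 3.57% of the table, and are in capitals below. The immunoproteasome list did not mostly rise, with 1 of 5 genes higher and 1 lower (median -0.03). Of 8 TNF superfamily ligands 3 rose and none fell.
GBP4: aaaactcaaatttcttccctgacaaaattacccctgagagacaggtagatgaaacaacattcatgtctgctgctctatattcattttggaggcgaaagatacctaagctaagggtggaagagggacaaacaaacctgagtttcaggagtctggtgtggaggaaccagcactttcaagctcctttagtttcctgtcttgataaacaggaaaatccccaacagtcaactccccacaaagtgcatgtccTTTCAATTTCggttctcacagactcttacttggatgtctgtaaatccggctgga

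Signalling genes showed single large rises in mixed lists. In the RAS-ERK list 18 of 38 genes rose and 14 fell; the phosphatase DUSP1 rose from 28.8, 28.7 and 27.2 CPM to 96, 94.6 and 93.4 CPM (1.75 ± 0.05), and NRAS fell (-0.98). In the PI3K, AKT and mTOR list 11 of 35 rose and 14 fell, which upper-quartile scaling turned to 17 and 7. There PIK3IP1, an inhibitor of PI3K, rose from 18.3, 17.1 and 16.5 CPM to 85.8, 84.5 and 87.8 CPM (2.31 ± 0.08). SGK1, a kinase related to AKT, measured 82.4, 81.8 and 84.6 CPM in shEV and 661, 664 and 668 CPM in PHF19_KD (3 ± 0.04; edgeR adjusted p = 1.84e-13). RNF122, a membrane ubiquitin ligase, rose from 44.5 ± 1.92 to 576 ± 7.91 CPM (3.69 ± 0.05).

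In the TGF-beta and BMP list 18 of 35 genes rose and 6 fell (median 0.56). SMAD3, which carries the TGF-beta signal to the nucleus, rose from 24.6 ± 2.27 to 56.0 ± 1.62 CPM, and SMAD1, which carries the BMP signal, fell from 19.7 ± 0.218 to 11.9 ± 0.755 CPM. Of 29 collagens and collagen enzymes 16 rose and 2 fell (PLOD2, -0.31, and ADAMTS2, -2.18), at low levels that summed to 381 ± 15.2 CPM in shEV and 495 ± 8.72 CPM in PHF19_KD. The call of ADAMTS2 was lost without shEV replicate 2 or PHF19_KD replicate 2 (edgeR adjusted p = 0.166 and 0.103) and with DESeq2 (adjusted p = 0.0596). ADAMTS2 was hardly detected in any shEV or PHF19_KD library. It met the level for naming only through the KD_Rescued libraries (11.9 and 12.6 CPM). ST8SIA2, which builds polysialic acid, fell from 13.3, 13.6 and 10.5 CPM to 0.372, 0.248 and 0.347 CPM (-5.26 ± 0.22; edgeR adjusted p = 1.01e-09).

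Transcription factors of the plasma cell list were balanced, with 13 of 36 higher and 15 lower (18 and 12 with upper-quartile scaling), and held some of the larger single changes. MYB, a factor of proliferating blood cells, measured 54.8, 51.5 and 55.1 CPM in shEV and 2.51, 2.32 and 2.17 CPM in PHF19_KD (-4.53 ± 0.09; edgeR adjusted p = 2.5e-12). MXD4, a partner of MAX that opposes MYC, rose from 46.2 ± 6.65 to 133 ± 4.93 CPM, and MAF, an oncogene of a myeloma subtype, rose from 653, 624 and 579 CPM to 1430, 1357 and 1389 CPM (1.17 ± 0.05). ETS1 fell from 98.8 ± 2.47 to 35.3 ± 0.675 CPM.

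Of 29 genes of the nuclear receptor list, which also holds ARNT, a receptor's partner, 16 rose and 5 fell (median 0.42). Of 22 clock genes 9 rose and 5 fell. The falls in the receptor list were NR3C2 (-0.95), VDR (-0.24), NR3C1 (-0.13) and, named after their values were seen, NR2F2 (-1.23) and ARNT (-0.11). NR3C1 was at 0.02 with upper-quartile scaling and lost its call without any 1 of shEV replicate 2 and PHF19_KD replicates 2 and 3. ARNT was at 0.04 with upper-quartile scaling and lost its call in 5 of the 6 fits with 1 replicate left out, all but that without shEV replicate 3. PER1, a repressor of the clock, rose from 13.4 ± 1.25 to 35.6 ± 2.20 CPM and NR1D2 (REV-ERB beta) from 27.8 ± 1.10 to 61.7 ± 3.56 CPM. NFIL3, which opposes the clock output factor DBP, fell from 148 ± 10.7 to 75.6 ± 3.78 CPM, as did ARNTL2 (-1.38, divided reads), BHLHE40 (-0.60) and, named after their values were seen, PER2 (-0.56, divided reads) and CRY1 (-0.47). FOXO4 rose from 17 ± 0.898 to 34.1 ± 0.614 CPM, while FOXM1, which drives mitotic genes, fell from 112 ± 4.22 to 15 ± 0.235 CPM (divided reads).

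Long non-coding RNAs rose more often than they fell in each of the level bins with at least 20 of them. Antisense RNAs gave 153 rises and 20 falls of 280 (median 0.76), other long non-coding RNAs 182 and 39 of 319 (median 0.75), and genes named LINC 83 and 12 of 137 (median 0.86). Protein-coding genes gave 4123 rises and 4932 falls of 12045 (median -0.05), and pseudogenes 218 and 260 of 1038 (median -0.06). At a mean log2 CPM between 2 and 4, antisense and other long non-coding RNAs together had a median of 0.55, with 69 of 109 higher and 10 lower, where protein-coding genes had a median of 0.12. Whether the counting used strand is not given in the sources used here, so reads of an antisense RNA and of its partner gene cannot be told apart. Zinc finger genes named ZNF (120 higher and 123 lower of 409) and solute carriers (80 and 82 of 211) were balanced on the main scale.

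Markers of other cell types were low in both groups. Plasma cell markers were all measured, and 4 of 10 rose and 4 fell. They had a summed level of 10605 to 11705 CPM in shEV and 7019 to 7196 CPM in PHF19_KD. Most of that difference was IGJ alone, which went from 6666 ± 552 to 2796 ± 58.4 CPM. The rises were CD38, SDC1, XBP1 (0.14, divided reads; without a call in 4 of the 6 fits with 1 replicate left out) and CD27 (0.95, divided reads, named after its value was seen; without a call when shEV replicate 2 or PHF19_KD replicate 1 was left out, with edgeR adjusted p = 0.0756 and 0.163), and the falls IGJ, TNFRSF17, MZB1 and IRF4. CD38 rose from 148 ± 2.71 to 332 ± 5.25 CPM (divided reads) and SDC1 (CD138) from 676 ± 60.6 to 1024 ± 35.3 CPM. Of 7 B cell markers 1, CR2, passed the filter on low counts, with all 7 summing to 20.3 to 23.5 CPM against 37.8 to 42.9 CPM. T and NK cell markers summed to at most 2.42 CPM in any library, fibroblast markers to 2.53 to 2.78 CPM in shEV and 9.89 to 10.6 CPM in PHF19_KD, and monocyte markers to 20.4 to 23.3 CPM and 26.5 to 31.3 CPM. Erythroid markers summed to 5.61 to 6.19 CPM in shEV and 1.65 to 2.42 CPM in PHF19_KD, and epithelial markers to at most 1.41 CPM. Markers listed at 0 in all 6 libraries numbered 2 of 7 for B cells, 2 of 9 for T and NK cells, 1 of 8 for monocytes, 4 of 7 for erythroid cells and platelets, 2 of 6 for fibroblasts and 1 of 6 for epithelium. The part of these markers in other results was not tested.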

How the data were processed

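Expression was measured by RNA-seq in 9 MM1S libraries. The table the authors deposited holds estimated counts per gene symbol, 58387 genes, not scaled between libraries. The submitters' processing notes name CASAVA, RSEM and hg19 without roles or versions, and the table's own name refers to salmon; the program behind the counts is therefore not settled. Values that are not whole (tolerance 0.01) show reads divided between genes; genes with such values in more than 4 of the 9 libraries are marked as having divided reads.

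Counts were rounded, filtered with filterByExpr by group, scaled by TMM and fitted with edgeR 4.0.16 (R 4.3.3; robust quasi-likelihood) over 8 libraries with undisputed labels (3 shEV, 3 PHF19_KD, 2 KD_Rescued). Groups came from the titles and shRNA labels. The contrast was PHF19_KD minus shEV, and p-values were adjusted over all 16600 genes tested. Changes beyond 2-fold were tested with glmTreat. Standard errors are the log2 fold change divided by the root of the F statistic. CPM are counts over library size times TMM factor. The filter, the TMM factors and the mean log2 CPM were taken over the 8 fitted libraries. Total counts were 10609800 to 22739700 in the 6 libraries compared. Shares of counts were compared with an exact two-sided permutation test. The scripts were tested on simulated data.

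Gene lists (85) are described by counts and medians, with no test of a list. Members and lists were chosen with earlier results of these data known. Genes were named by rule: PHF19; the 15 largest rises and 15 largest falls without overlap between groups and with a log2 CPM averaging 4 or more; the 10 largest gains and losses in CPM; and up to 3 called rises and 3 called falls per list where that average is 1 or more. The text gives part of these. Some genes that meet the rule are not reported here. Members named because 5 or fewer of a list moved 1 way can lie outside this rule and are said to be so. Biotypes were matched by symbol. Promoter letters were searched in 35116 RefSeq promoters, which covered 83.1% of tested protein-coding genes; printed promoters belong to genes with 1 promoter in the table. Alternatives were other scalings, DESeq2 1.42.0, limma-voom (limma 3.58.1), filters, 6 libraries only, a replicate block, thinning, leaving out mitochondrially encoded genes or genes with divided reads, and leaving out each replicate.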

Additional observations from a re-analysis of the deposited data

How the results depend on the processing

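Direction and call were kept by most named genes under each alternative, from 412 of 421 without mitochondrially encoded genes and 415 of 431 without the filter on low counts to 430 of 431 with RLE scaling or limma-voom. DESeq2 called 10339 genes and left 13 of the 431 named genes on the other side of the threshold. With genes of divided reads left out, 8744 genes were tested and 6538 were called, 3302 higher and 3236 lower, with 681 lower by more than 2-fold; fewer genes were tested. A filter of 5 CPM in 3 libraries left 11239 genes, of which 885 were higher by more than 2-fold; the filter removes low genes. Counted over nuclear-encoded genes only, the share of ribosomal protein genes rose by 4.19 percent points. Leaving out 1 replicate at a time gave 10729 to 11754 calls. Reversals were seen in GNLY, which was not called and had 0.08 on the log2 scale: -0.01 without the filter, and -0.21 (without PHF19_KD replicate 2) to 0.30 (without shEV replicate 1) with 1 replicate left out. NR3C1 had -0.13 and 0.02 with upper-quartile scaling; the cause was not tested. Of the genes named outside the rule, upper-quartile scaling turned ORC2 (0.03), JARID2 (0.07), PLXNC1 (0.05), ADAR (0.04) and ARNT (0.04) from below to above 0, without a call, and a filter of 5 CPM turned JARID2 (0.02). XBP1 (0.14) lost its call without the filter, without mitochondrially encoded genes, and without any 1 of shEV replicates 1 and 2 and PHF19_KD replicates 2 and 3.

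Replicate numbers do not pair the libraries: same-numbered libraries had correlations of their deviations from the group means of 0.007, 0.011 and 0.026. A fit with the replicate number as a block called 11537 genes, 5814 higher and 5723 lower.

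Depth limits the precision of genes with a mean log2 CPM under 0, where 959 rises and 197 falls were called of 2546 genes. CTD-2328D6.1, a clone-named gene among the largest rises, scattered most widely among those 15: it measured 10.4, 115 and 29.2 CPM in shEV and 454, 696 and 691 CPM in PHF19_KD (log2 fold change 3.57 ± 0.86, edgeR adjusted p = 0.0131).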

Other observations

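The 3 libraries outside the comparison are given as values on the same CPM scale, with no test and no order drawn from them; the genes were chosen after their values were seen. In the unassigned library PHF19 measured 63.3 CPM, between the 6 libraries' groups, and so did CDC6 (31.7 CPM), KIF23 (20 CPM), SGK1 (338 CPM), GAA (12.3 CPM), MYB (9.92 CPM) and GBP4 (17.8 CPM). Of the 431 genes named by the rule, 25 lay above and 16 below the range of all 6 libraries compared in the unassigned library. Among the former, ABCA1 measured 56.7 CPM and CCL3 1463 CPM, where the highest values of the compared libraries were 33.6 and 1029 CPM. In the 2 KD_Rescued libraries PHF19 measured 220 and 218 CPM, above all 3 shEV libraries. Since only these libraries carry their lane tag, lane and re-expression of PHF19 cannot be told apart in their values. CDC6 measured 120 and 119 CPM in KD_Rescued and GAA 4.62 and 4.38 CPM. PHGDH measured 44.5 and 44.2 CPM in KD_Rescued, between the levels of shEV and PHF19_KD. ADAMTS2, which encodes a procollagen protease, measured 11.9 and 12.6 CPM in KD_Rescued and at most 0.506 CPM in any shEV or PHF19_KD library.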
